A study of Homo sapiens with 6 samples.

Results

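The chemokine genes described here are 10 secreted chemotactic proteins, CCL5, CXCL10, CXCL11, CCL2, CCL20, CXCL1, CXCL2, CXCL3, CXCL5 and CXCL8, chosen by their gene symbols from the 29845 genes of the deposited count table. RNA of A549 cells, an established human lung adenocarcinoma line with epithelial character, was sequenced in 6 libraries. The control group was 3 libraries of cells that received the empty plasmid pIRES-hrGFP-1a, and the TFAM-OE group was 3 libraries of cells that received the same plasmid carrying the TFAM cDNA joined to a FLAG tag. All 6 cultures were therefore transfected with plasmid DNA by a lipid reagent, and a culture without plasmid was not analysed here. Of the genes in the table, 16555 passed the filter on low counts and were tested, and all 10 chemokine genes were among them.

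Chemokines are small proteins that cells release to draw leukocytes toward a site of infection or injury. The CXC ligands CXCL1, CXCL2, CXCL3, CXCL5 and CXCL8 (interleukin-8) act on CXCR2 and attract neutrophils, whereas CXCL10 and CXCL11 act on CXCR3 and attract activated T cells. The CC ligand CCL2 attracts monocytes through CCR2, CCL20 attracts CCR6-bearing cells, and CCL5 (RANTES) attracts T cells and monocytes through receptors that include CCR1. The 10 genes are weakly expressed in most resting cells and are switched on by cytokine and pathogen sensing. NF-κB, freed from its inhibitor by IL-1, TNF or Toll-like receptor signals, drives the neutrophil-attracting ligands, CCL2 and CCL20. Interferon regulatory factors and other factors below the interferon receptors are needed in addition for strong expression of CCL5, CXCL10 and CXCL11. The comparison below therefore sets 3 interferon-driven members against 7 NF-κB-driven members.

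Both routes end at the promoters of these genes, so their letters are shown first. RefSeq promoter windows on GRCh38.p14, from 250 bases before to 50 bases after the annotated start, were held for 8 of the 10 members, all but CCL5 and CCL2. Both strands were searched for an interferon response element, spelled GAAA, any 2 bases, GAAA, and for an NF-κB site, spelled GG, any 3 bases, TTCC. The 250 bases before the start are printed for both interferon-driven members that have a window and for CXCL8 and CXCL1, the NF-κB-driven ligands that stood lower and level between the groups. Capitals mark the matches.
CXCL10 (chr4:76023498-76023747, minus strand): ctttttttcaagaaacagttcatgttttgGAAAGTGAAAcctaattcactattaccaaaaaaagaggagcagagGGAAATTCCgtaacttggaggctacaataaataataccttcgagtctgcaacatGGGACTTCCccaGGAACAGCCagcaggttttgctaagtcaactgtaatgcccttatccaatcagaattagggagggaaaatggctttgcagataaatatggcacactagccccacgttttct
CXCL11 (chr4:76036071-76036320, minus strand): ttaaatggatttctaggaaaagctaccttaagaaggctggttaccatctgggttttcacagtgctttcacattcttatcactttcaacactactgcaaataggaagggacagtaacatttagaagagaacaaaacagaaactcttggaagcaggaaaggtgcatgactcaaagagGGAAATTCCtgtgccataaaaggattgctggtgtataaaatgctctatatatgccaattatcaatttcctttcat
CXCL8 (chr4:73740319-73740568, plus strand): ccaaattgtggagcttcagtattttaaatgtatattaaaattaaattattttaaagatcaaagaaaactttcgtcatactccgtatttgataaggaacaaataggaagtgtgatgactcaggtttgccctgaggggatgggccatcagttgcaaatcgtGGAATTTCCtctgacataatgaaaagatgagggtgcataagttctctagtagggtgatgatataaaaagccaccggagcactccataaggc
CXCL1 (chr4:73869143-73869392, plus strand): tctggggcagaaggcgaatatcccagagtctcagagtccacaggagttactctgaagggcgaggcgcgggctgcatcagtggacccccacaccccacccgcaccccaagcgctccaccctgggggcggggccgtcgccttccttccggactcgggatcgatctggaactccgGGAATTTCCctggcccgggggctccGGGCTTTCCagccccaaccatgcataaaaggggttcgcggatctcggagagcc

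The interferon response element was found in 1 of the 8 windows, that of CXCL10, as GAAAGTGAAA from position -221 to -212, counting the base before the start as -1. This spelling occurs in 3.57% of 35116 RefSeq promoter windows of the same length. The NF-κB spelling was found in 8 of the 8 windows, including those of CXCL10 and CXCL11, against 20.1% of all windows. CXCL10 held it at 3 places, -176 to -168, -122 to -114 and, on the opposite strand, -110 to -102, and CXCL11 held it once, from -75 to -67. CXCL8 carried GGAATTTCC from -91 to -83, and the same 9 letters stood at -90 to -82 in CXCL5, at -78 to -70 in CXCL1 and CXCL3 and at -77 to -69 in CXCL2. The windows of CXCL1, CXCL2 and CXCL3 also shared GGGCTTTCC at -53 to -45, and CCL20 had GGAAAACCC, the spelling on the opposite strand, at -79 to -71. Letters matching a spelling are a description of these windows and not evidence of binding, and a missing match is not evidence that an element is absent. The NF-κB spelling did not separate the classes, since interferon-driven and NF-κB-driven windows both held it.

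**Figure D1:**
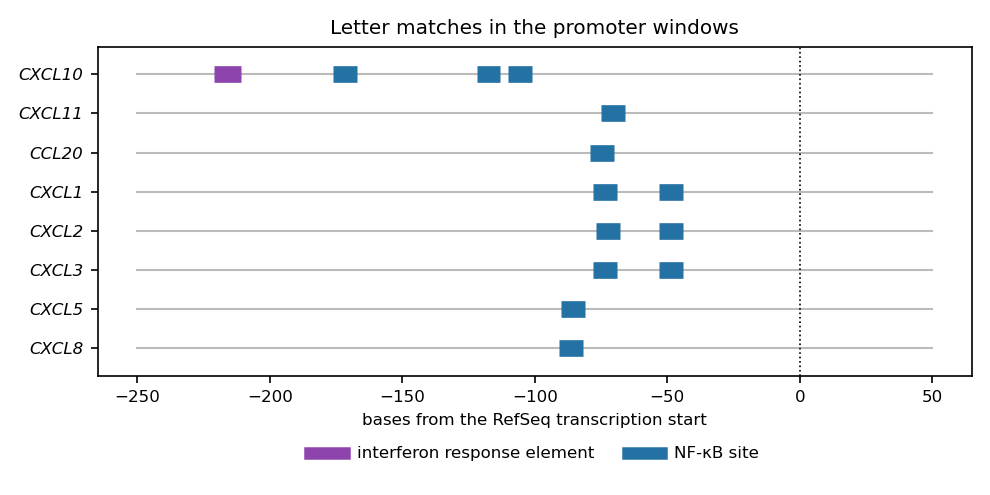
Positions of the matched spellings in the 8 promoter windows, with distance from the RefSeq start in bases on the horizontal axis and 1 row per gene. Grey lines are the windows, and each mark is 1 match to the interferon response element or to the NF-κB site. The CXCL10 window alone holds the interferon response element spelling, at -221, and each of the 8 windows holds at least 1 match to the NF-κB spelling.

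The 10 genes lie on 3 chromosomes (GRCh38, GENCODE version 44). CXCL8 (4:73740519-73743716), CXCL1 (4:73869393-73871308), CXCL5 (4:73995642-73998677), CXCL3 (4:74036589-74038807) and CXCL2 (4:74097040-74099196) form a cluster of 358678 bases on chromosome 4. CXCL10 (4:76021118-76023497) and CXCL11 (4:76033682-76041415) lie 1921921 bases further along the same chromosome, 10184 bases apart. CCL2 (17:34255274-34257208) and CCL5 (17:35871491-35880793) are on chromosome 17 and CCL20 (2:227805739-227817564) is on chromosome 2. The 2 chromosome 4 groups thus hold 5 NF-κB-driven and 2 interferon-driven members. Each promoter window belongs to 1 annotated start. The windows of CXCL11 and CCL20 lie wholly inside these gene spans, and starts further upstream were not searched.

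The libraries held 26650854 to 37321956 counted reads. TFAM itself, the targeted gene, gave 2555, 1878 and 2663 reads in control and 2291, 2808 and 2492 in TFAM-OE. In CPM (read counts scaled by TMM to a common library total) this was 73.0 ± 2.97 (SD, n = 3) in control and 77.4 ± 5.58 (SD, n = 3) in TFAM-OE, with overlapping groups and a fold of 1.06 (95% interval 0.914 to 1.23; adjusted p = 0.623, edgeR's quasi-likelihood test with Benjamini-Hochberg adjustment). The TFAM counts therefore did not set the groups apart, and the groups below are those of the labels. The study also examined the FLAG-tagged protein by western blot, which is no part of the counts. Of 8 genes listed as lung epithelial markers 8 were tested and 0 were called different. The enzyme gene ALDH1A1 and EPCAM, 2 of the 8, were higher at an unadjusted p below 0.05 in edgeR. Of all genes tested, 12.2% were higher at that level, 2.07% were called lower and 0.447% were called higher. The keratins KRT7, KRT8 and KRT18 stood at 495 to 1376 FPKM (fragments scaled for transcript length and library depth, as deposited) in control, while EPCAM (0.193 FPKM) and CDH1 (0.753 FPKM) were near 0 there. The leukocyte marker PTPRC had 0 to 1 reads in every library.

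CCL5, CXCL10 and CXCL11 were all lower in TFAM-OE, by 3.9-fold to 8.11-fold, and no chemokine gene was called higher. A gene was called when the adjusted p was below 0.05 and the fold was at least 2 or at most 0.5, the study's own thresholds. By this rule 3 of the 10 members were called lower, against 2.07% of all genes tested, and 0 of 10 were called higher, against 0.447%. The members called lower were the 3 interferon-driven genes, while 0 of the 7 NF-κB-driven genes were called in either direction. At the adjusted p alone 4 of 10 were lower (4.81% of all genes) and 0 were higher (3.48%), the added gene being CXCL8. At an unadjusted p below 0.05, edgeR placed 0 of the 10 members higher, against 12.2% of all genes tested, and 5 lower, against 13.2%, of which 2, CXCL2 and CXCL8, were NF-κB-driven. DESeq2 and limma-voom also called 3 members lower and 0 higher.

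CCL5, the most abundant of the interferon-driven members, had 5098, 2995 and 2663 reads in control and 540, 458 and 358 in TFAM-OE. In CPM these were 152, 112 and 72.7 against 16.9, 12.6 and 11.9. Every TFAM-OE library was below every control library, although the control libraries themselves differed, with a coefficient of variation of 35.3%. CCL5 was 8.11-fold lower (log2 fold change -3.02, SE 0.25; 95% interval of the fold 0.0833 to 0.183; adjusted p = 0.000125, edgeR's quasi-likelihood test). In this bulk RNA, fewer cells making CCL5 and less CCL5 RNA per cell cannot be told apart, which holds for each gene below.

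CXCL10 was far less abundant, with 67, 51 and 106 reads in control and 30, 17 and 10 in TFAM-OE. Scaled for depth these were 1.995, 1.905 and 2.893 against 0.941, 0.468 and 0.333 CPM. The groups did not overlap, but the TFAM-OE libraries spread widely, with a coefficient of variation of 55.0%. CXCL10 was 3.9-fold lower (log2 fold change -1.96, SE 0.35; 95% interval of the fold 0.150 to 0.439; adjusted p = 0.0103, edgeR's quasi-likelihood test). The 10 reads of TFAM-OE replicate 3 carry an exact Poisson 95% interval of 4.795 to 18.39 reads, for counting error only. Without TFAM-OE replicate 2 the adjusted p was 0.0578 (log2 fold change -1.82, edgeR), so the call was lost when this library was left out. The log2 fold change nevertheless remained negative in each of the 17 alternatives that were fitted anew.

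CXCL11, which shares the receptor CXCR3 with CXCL10, had 72, 53 and 69 reads in control and 11, 10 and 6 in TFAM-OE. Scaled for depth these were 2.14, 1.98 and 1.88 against 0.345, 0.275 and 0.200 CPM, with the control libraries close together and all above the TFAM-OE libraries. CXCL11 was 7.21-fold lower (log2 fold change -2.85, SE 0.27; 95% interval of the fold 0.0916 to 0.210; adjusted p = 0.000273, edgeR's quasi-likelihood test). It exceeded the filter's level of 0.303 CPM in 3 control libraries but in 1 TFAM-OE library, so its control level brought it into the test. CXCL10 and CXCL11 both lie inside ART3, a gene on the opposite strand, and CCL5 and CXCL5 each overlap an antisense lncRNA. The kit was stranded, but neither the labels nor the study's methods say whether counting used the strand. Reads of these genes and their antisense partners may therefore not be told apart. ART3 itself had no row under this symbol in the deposited count table.

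**Figure D2:**
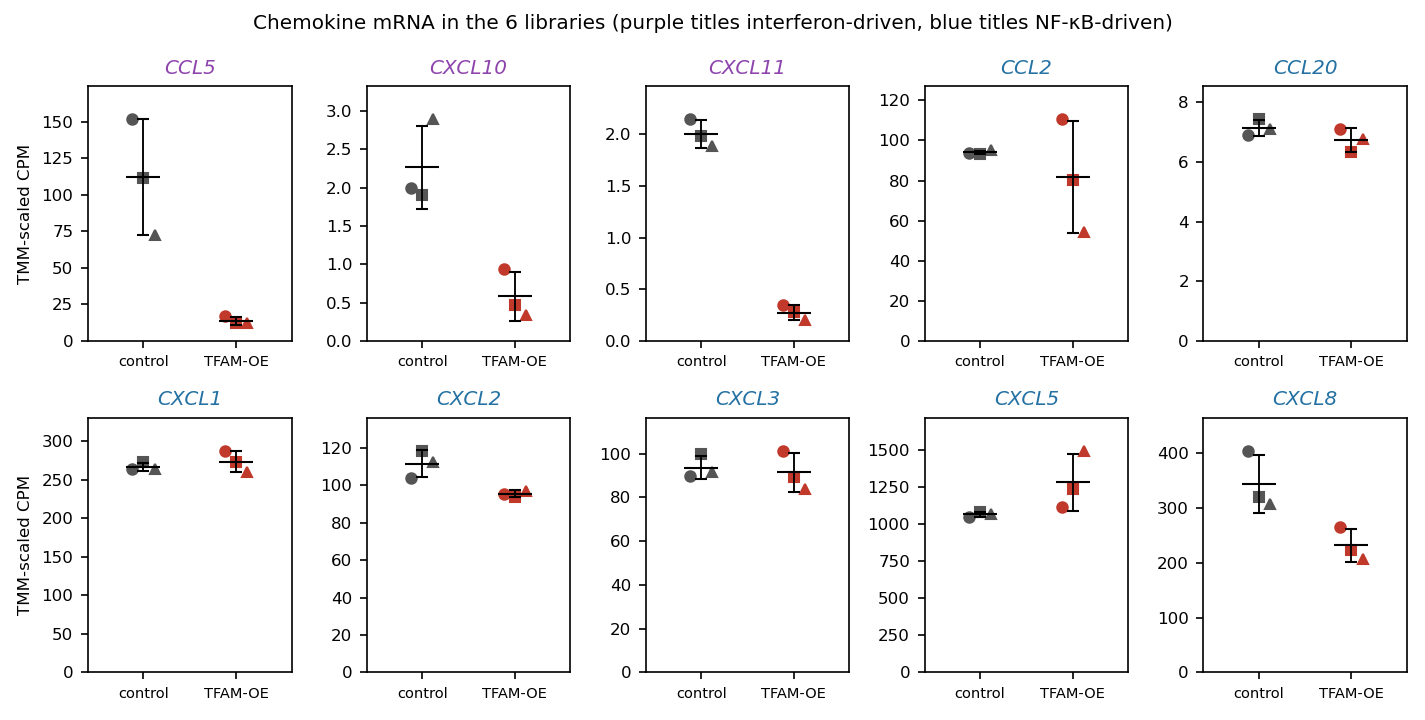
TMM-scaled CPM of the 10 chemokine genes, 1 panel per gene with its own linear vertical axis from 0, control in grey and TFAM-OE in red. Each point is 1 library, with the mean and SD of the 3 libraries in black and the replicate number shown by marker shape. The 3 TFAM-OE libraries sit below the 3 control libraries for CCL5, CXCL10 and CXCL11, whereas the points overlap for CXCL1, CXCL3, CCL20 and CCL2.

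The neutrophil-attracting ligands included the most abundant chemokine RNAs, and none of the 5 was called different. CXCL8 (interleukin-8) measured 404, 319 and 307 CPM in control and 264, 223 and 206 CPM in TFAM-OE, with every TFAM-OE library below every control library. Its fold was 0.673 (95% interval 0.548 to 0.828; log2 fold change -0.57; adjusted p = 0.0305, edgeR's quasi-likelihood test), which passed the adjusted p but not the 2-fold threshold. The adjusted p of CXCL8 was 0.142 without control replicate 1, 0.0971 without control replicate 2 and 0.146 without TFAM-OE replicate 2 in edgeR. CXCL8 thus failed the adjusted p when any of these libraries was left out. Its log2 fold change was then -0.43, -0.61 and -0.54, in that order. Fewer genes were also called lower in these fits, 183, 184 and 205 against 342 with all libraries.

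CXCL1, which like CXCL8 acts on CXCR2, measured 265, 273 and 264 CPM in control and 288, 273 and 260 CPM in TFAM-OE. The groups overlapped, and the fold was 1.03 (95% interval 0.894 to 1.17; adjusted p = 0.841, edgeR's quasi-likelihood test). That interval stays well inside a 2-fold change in either direction. CXCL3 measured 89.7, 99.9 and 91.4 CPM in control and 101, 89.3 and 84.0 CPM in TFAM-OE, overlapping, with a fold of 0.977 (95% interval 0.8337 to 1.146; adjusted p = 0.874, edgeR). For neither gene was a difference larger than the spread between libraries.

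CXCL2 and CXCL5 parted between the groups in opposite directions without passing the test. CXCL2 measured 104, 119 and 113 CPM in control against 95.5, 93.5 and 97.2 CPM in TFAM-OE, a fold of 0.855 (95% interval 0.742 to 0.985; adjusted p = 0.156, edgeR). CXCL5, the most abundant chemokine RNA, measured 1048, 1082 and 1072 CPM in control against 1114, 1237 and 1496 CPM in TFAM-OE, a fold of 1.20 (95% interval 0.999 to 1.45; adjusted p = 0.199, edgeR). TFAM-OE replicate 3 was the highest library for CXCL5. Without it the log2 fold change was 0.15, and on the FPKM scale TFAM-OE replicate 1, at 352 FPKM, lay level with the control libraries. Of the 10 members, 5 had every TFAM-OE library below every control library and 1 had every TFAM-OE library above, against 15.8% and 15.8% of all genes tested.

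CCL2, the monocyte attractant, had tight control values of 93.7, 93.5 and 95.1 CPM and widely spread TFAM-OE values of 111, 80.3 and 54.5 CPM. The TFAM-OE libraries lay on both sides of the control, and the fold was 0.869 (95% interval 0.635 to 1.19; adjusted p = 0.572, edgeR). The value rested on single libraries: the log2 fold change was 0.027 without TFAM-OE replicate 3 and -0.48 (adjusted p = 0.0444, edgeR) without TFAM-OE replicate 1. CCL20 measured 6.91, 7.43 and 7.10 CPM against 7.12, 6.33 and 6.77 CPM, overlapping, with a fold of 0.943 (95% interval 0.769 to 1.16; adjusted p = 0.731, edgeR). CCL20 was the least abundant NF-κB-driven member and among the steadiest.

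**Figure D3:**
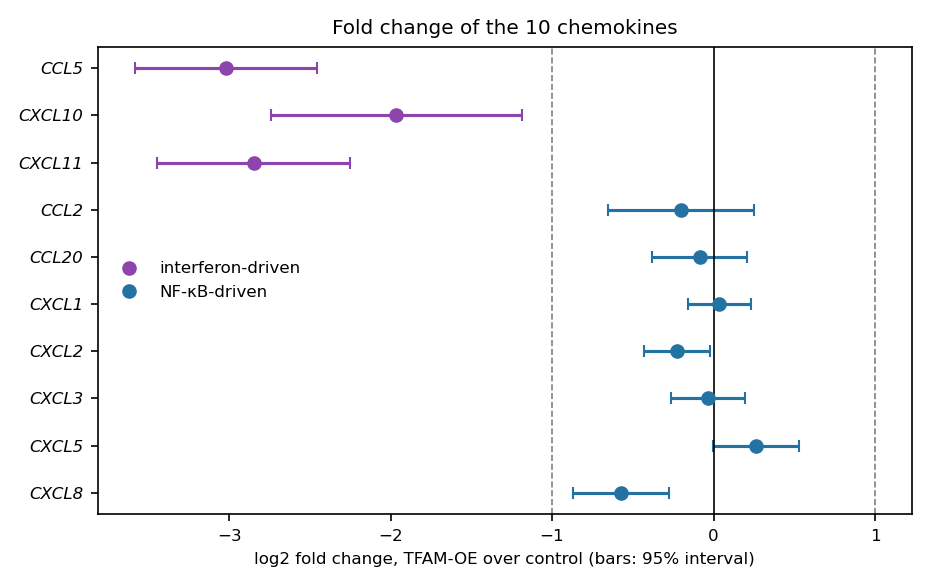
Log2 fold change (TFAM-OE over control) of each chemokine gene with its 95% interval from the edgeR fit, interferon-driven in purple and NF-κB-driven in blue; dashed lines mark the 2-fold thresholds and the solid line no change. CCL5, CXCL11 and CXCL10 lie at -3.02, -2.85 and -1.96, and the 7 NF-κB-driven genes lie between -0.57 and 0.26.

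The classes can be set beside each other by their medians. The median log2 fold change was -2.85 over the 3 interferon-driven members and -0.08 over the 7 NF-κB-driven members, beside -0.01 over all genes tested. The class medians thus lay 2.76 apart on the log2 scale. Within each library, the mean log2 CPM of the interferon-driven members minus that of the NF-κB-driven members was -3.90, -4.13 and -4.11 in control and -6.10, -6.50 and -6.73 in TFAM-OE. The 3 TFAM-OE libraries were all below the 3 control libraries on this difference, in which library depth cancels. The lowest NF-κB-driven log2 fold change, that of CXCL8 at -0.57, remained above the highest interferon-driven one, that of CXCL10 at -1.96.

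A single pair of CXC ligands on chromosome 4 shows the same contrast without any scaling. CXCL8 reads per CXCL10 read numbered 202, 168 and 106 in control and 281, 478 and 619 in TFAM-OE. The log2 ratio of CXCL10 to CXCL8 was -7.26 ± 0.478 (SD, n = 3) in control and -8.77 ± 0.582 (SD, n = 3) in TFAM-OE, and the groups did not overlap. The ratio was 2.85-fold lower in TFAM-OE (two-sided exact permutation p = 0.1, the smallest p that 3 against 3 libraries allow). This design cannot reach 0.05 for a single value. The pair was fixed by name with earlier results of these data known.

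The members span more than 2 orders of magnitude in abundance when length is taken into account. In control, FPKM means ran from 359 for CXCL5, 208 for CXCL1 and 147 for CXCL8 to 7.25 for CCL20, 1.64 for CXCL10 and 0.897 for CXCL11. Between these, CXCL2 (78.2 FPKM), CXCL3 (74.4 FPKM), CCL2 (71.6 FPKM) and CCL5 (67.4 FPKM) each overlapped its neighbour in this order, while the ranges of CXCL2 (74.97 to 82.53 FPKM) and CCL2 (70.6 to 73.4 FPKM), which are not neighbours, lay apart. In TFAM-OE the order was the same except that CXCL3 (71.3 FPKM) stood above CXCL2 (65.9 FPKM), with overlapping ranges. CCL5 fell from the level of CXCL2, CXCL3 and CCL2 to 8.08 FPKM, beside CCL20 at 6.72 FPKM, while CCL2 stood at 60.5 FPKM.

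The interferon-driven share of the summed chemokine FPKM was therefore small in both groups and smaller in TFAM-OE. It was mostly CCL5. Mean CCL5 FPKM was 67.4 of the class sum of 69.9 in control and 8.08 of 8.60 in TFAM-OE. The interferon-driven share was 8.90, 6.76 and 4.76% in the control libraries and 1.14, 0.853 and 0.757% in the TFAM-OE libraries, without overlap. CXCL5 alone held 33.7, 35.6 and 37.0% in control and 39.01, 44.46 and 51.13% in TFAM-OE. The summed FPKM of the 10 genes was 1077, 1016 and 952 in control and 902, 912 and 1025 in TFAM-OE, so the groups overlapped in the total although they did not overlap in these shares.

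**Figure D4:**
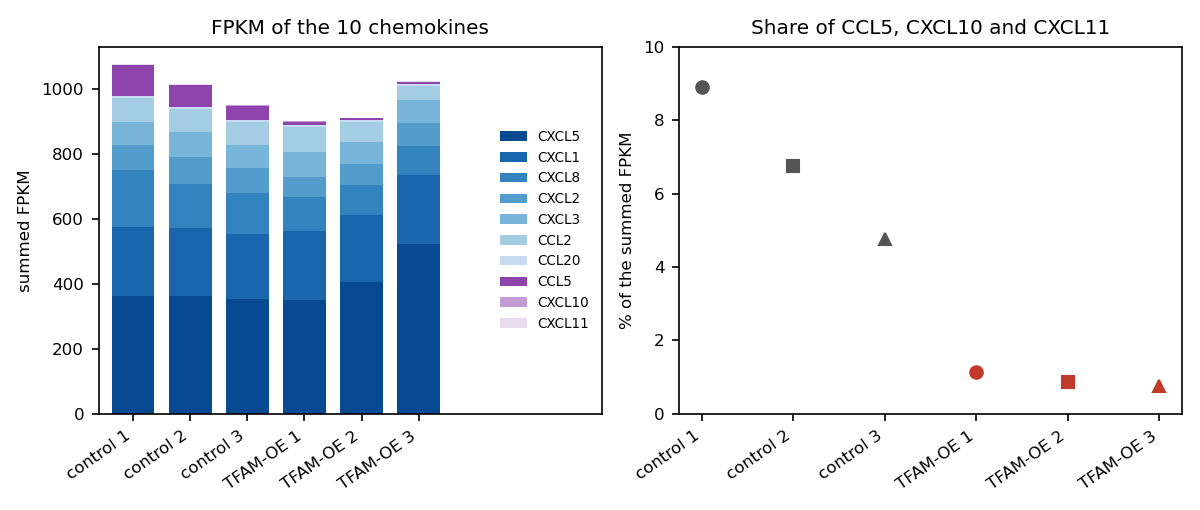
Left, FPKM of the 10 chemokine genes stacked by gene in each of the 6 libraries, NF-κB-driven genes in blue and interferon-driven genes in purple. Right, the percentage of the stack held by CCL5, CXCL10 and CXCL11, which runs from 4.76 to 8.90% in the control libraries and from 0.757 to 1.14% in the TFAM-OE libraries, while CXCL5 and CXCL1 form the largest blocks in every library.

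Beyond the members, 38 other chemokine ligands were listed, of which 24 had a row in the table and 6 passed the filter. Of these 1 was called lower and 0 higher, with 3 lower and 0 higher at an unadjusted p below 0.05 in edgeR. The shares of all genes tested were 2.07, 0.447, 13.2 and 12.2% in the same order. CCL3 (MIP-1α), a ligand of CCR1, had 125, 72 and 137 reads in control and 9, 7 and 7 in TFAM-OE (log2 fold change -3.84, adjusted p = 4.437e-05, edgeR). CCL3 measured 0.282, 0.193 and 0.233 CPM in TFAM-OE, below the filter's level of 0.303 CPM, so its control level brought it into the test. Its near-identical copy CCL3L3 had 5 to 29 reads in control and 0 to 2 in TFAM-OE, so the assignment of reads between these copies is uncertain. CXCL16, a membrane-bound ligand of CXCR6, measured 8.67 ± 0.498 FPKM in control and 6.49 ± 0.380 FPKM in TFAM-OE (SD, n = 3; adjusted p = 0.0810, edgeR), and CCL26 (eotaxin-3) measured 1.85 and 2.003 FPKM (adjusted p = 0.824, edgeR). CXCL9, the other CXCR3 ligand, had 0 to 1 reads in every library.

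Of 22 chemokine receptors listed, 16 had a row, 5 were tested and 2 were called lower, against 2.07% of all genes tested. The main signalling receptors of the members that had a row were almost absent, since CXCR3 had 0 to 3 reads, CXCR2 0 to 2, CCR2 0 to 1 and CCR1 0 to 7 in any library. The 2 called lower were ACKR3, a scavenging receptor for CXCL11 and CXCL12, and CXCR4, the signalling receptor for CXCL12. ACKR3 had 710, 461 and 384 reads in control and 306, 266 and 204 in TFAM-OE (log2 fold change -1.04, adjusted p = 0.0301, edgeR), and CXCR4 had 69, 30 and 61 against 28, 16 and 20 (log2 fold change -1.31, adjusted p = 0.0363, edgeR). Both calls were lost when single libraries were left out. Without control replicate 1 the log2 fold changes were -0.80 for ACKR3 (adjusted p = 0.153, edgeR) and -1.09 for CXCR4 (adjusted p = 0.175, edgeR); without control replicate 2 the adjusted p was 0.125 and 0.0616, and without TFAM-OE replicate 2 it was 0.127 and 0.156 in the same order. Without TFAM-OE replicate 3 ACKR3 had -0.94 and missed the 2-fold threshold, and without control replicate 3 the adjusted p of CXCR4 was 0.0744. CXCR5, the receptor of CXCL13, measured 1.13 and 1.16 FPKM.

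Among the genes listed as upstream of the interferon-driven chemokines, the interferons, the RNA sensors and several transcription factors were lower in TFAM-OE. Whether these differences arose before or after those of the chemokines was not tested. Of 19 listed genes of this route 18 were tested, with a median log2 fold change of -0.39. Of these 7 were called lower, 9 were lower at the adjusted p and 0 were called higher. The shares of all genes tested were 2.07, 4.81 and 0.447% in the same order. The interferons IFNB1 and IFNL1 had 174, 121 and 132 reads and 261, 187 and 169 reads in control, and 12, 5 and 5 and 13, 19 and 11 in TFAM-OE (log2 fold changes -4.28 and -3.87; adjusted p = 7.223e-05 and 4.437e-05, edgeR). In TFAM-OE replicates 2 and 3 IFNB1 lay at 0.138 and 0.167 CPM, below the filter's level of 0.303 CPM. Its control level therefore brought it into the test. The RNA sensors RIG-I (DDX58), MDA5 (IFIH1) and TLR3 had log2 fold changes of -2.04, -2.20 and -1.80, and the transcription factors IRF7 and STAT2 had -1.93 and -1.02. The kinase TBK1 (-0.47, adjusted p = 0.0468, edgeR) and IRF1 (-0.61, adjusted p = 0.0240, edgeR) passed the adjusted p alone. In edgeR TBK1 had an adjusted p of 0.2005 without control replicate 1, 0.180 without control replicate 2, 0.0676 without TFAM-OE replicate 1 and 0.131 without TFAM-OE replicate 2. For IRF1 it was 0.0999, 0.117 and 0.0539 without control replicates 1, 2 and 3 and 0.117 without TFAM-OE replicate 2. STAT2 missed the 2-fold threshold without any one of control replicate 2 (-0.98), control replicate 3 (-0.89) and TFAM-OE replicate 3 (-0.93). The receptor subunits IFNAR1 and IFNAR2 and the kinase JAK1 had log2 fold changes of -0.23, -0.11 and -0.002, none past the test. At an unadjusted p below 0.05 edgeR placed 10 genes of this list lower and 4 higher, against 13.2% and 12.2% of all genes tested. The 4 higher were the adaptor MAVS, the factor IRF3 and the kinases IKBKE and TYK2. Their log2 fold changes of 0.40, 0.29, 0.34 and 0.37 did not pass the adjustment.

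Fewer of the genes listed as upstream of the NF-κB-driven chemokines passed the test, and the shares of the lists were not compared by a test. Neither list separates inputs of its route from targets of that route, or from genes that may serve both routes. Of 22 listed genes 21 were tested, with a median log2 fold change of -0.19. Of these 2 were called lower, 4 were lower at the adjusted p and 0 were called higher. All genes tested had shares of 2.07, 4.81 and 0.447% in the same order. The ligands IL1A and IL1B, which activate this route, were called lower (log2 fold changes -1.88 and -1.43; adjusted p = 0.00386 and 0.0241, edgeR). IL1B had 153, 106 and 139 reads in control and 70, 60 and 21 in TFAM-OE, and its adjusted p was 0.124, 0.0932 and 0.0889 without control replicate 1, control replicate 2 and TFAM-OE replicate 2. The adaptor MYD88 (-0.71, adjusted p = 0.0118, edgeR) and TNFAIP3, an inhibitor of this pathway that is itself an NF-κB target (-0.97, adjusted p = 0.00204, edgeR), passed the adjusted p alone. The adjusted p of MYD88 was 0.0757 without control replicate 2 and 0.0703 without TFAM-OE replicate 2 in edgeR. TNFAIP3 was called lower without control replicate 3 (-1.08) and without TFAM-OE replicate 3 (-1.004). The NF-κB subunits RELA and NFKB1 and the inhibitor NFKBIA had log2 fold changes of -0.31, -0.09 and -0.01, none past the test. TNF itself had 3 to 6 reads in every library. At an unadjusted p below 0.05 edgeR placed 6 genes of this list lower and 1 higher, against 13.2% and 12.2% of all genes tested. The 1 higher was the TNF receptor TNFRSF1A (0.29).

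Among 6 genes that act on chemokine mRNA stability, 0 were called and 1 was lower at the adjusted p alone, against 4.81% of all genes tested. At an unadjusted p below 0.05 edgeR placed 2 lower and 1 higher, against 13.2% and 12.2% of all genes tested. ZFP36 (tristetraprolin), which promotes decay of mRNAs with AU-rich elements such as that of CXCL8, had a log2 fold change of -0.89 (adjusted p = 0.00344, edgeR). The others, among them ELAVL1 (0.22) and ZC3H12A (-0.23), did not pass the test.

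**Figure D5:**
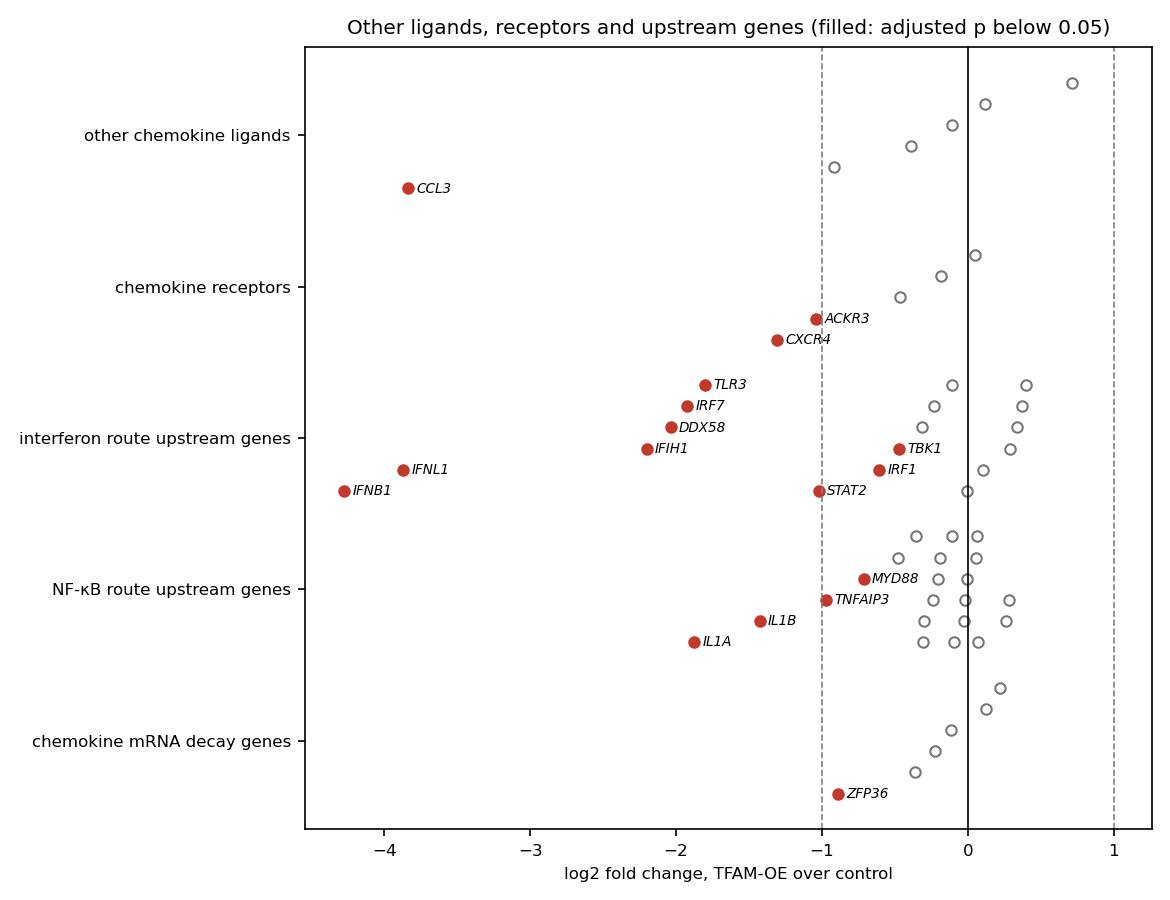
Log2 fold change (TFAM-OE over control) of each tested gene of the 5 lists of other ligands, receptors, upstream genes of both routes and mRNA decay genes; each point is 1 gene, filled where the adjusted p was below 0.05, and dashed lines mark the 2-fold thresholds. CCL3, IFNB1 and IFNL1 lie furthest to the left, at -3.84, -4.28 and -3.87, and no filled point lies to the right of 0.

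The genes whose profile over the 6 libraries was nearest to each member are named by a fixed rule. Nearness was the root mean square difference of log2 CPM, each gene centred on its own mean, over genes with a mean of at least 50 reads. For CCL5 the nearest were LAMP3, HDAC9 and IFIT2 (0.228, 0.238 and 0.287), for CXCL10 OAS1, IRF7 and THEMIS2 (0.216, 0.225 and 0.256) and for CXCL11 BATF2, IFIT3 and IFI44 (0.126, 0.139 and 0.155). IFIT2, IFIT3, OAS1 and IFI44 are interferon-stimulated genes. For CXCL8 they were EIF4A2, CTC-250I14.6 and GLIPR1 (0.0303, 0.0378 and 0.0470), and for CXCL1 ACTN1 and MID1IP1 (0.0162 and 0.0193). For CXCL5 they were ABI2, F11R and MTMR1, for CXCL3 GPN2, SFT2D3 and EPHB4, and for CCL20 NAGLU, CHFR and TTLL4. For CXCL2 they were RP11-486O12.2, RP11-571M6.7 and TMEM187, and for CCL2 GS1-124K5.4, AC093673.5 and AC074212.6. Many genes that vary little lie near a member that varies little, so these distances are smaller for level members and are descriptions only.

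CXCL1, CXCL2 and CXCL3 are close relatives, and their reads could be confused. Of the 50-base stretches of their main transcripts, 5.33, 10.1 and 5.26% occurred in another of these genes, and at 150 bases, the read length, none did in any of the 10 members. Only exact matches were counted. The study trimmed reads and aligned them allowing mismatches, so these shares do not show that reads were kept apart. Their promoter windows were alike at 82.5% (CXCL1 with CXCL3), 73.0% (CXCL1 with CXCL2) and 73.7% (CXCL2 with CXCL3) of aligned positions, against 44.7 to 55.8% for every other pair of the 8 windows. CXCL1 reads per CXCL2 read were 2.55, 2.30 and 2.34 in control and 3.01, 2.92 and 2.68 in TFAM-OE, without overlap. CXCL1 reads per CXCL3 read, at 2.95, 2.73 and 2.89 against 2.84, 3.06 and 3.10, overlapped.

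Markers of other cell types were low in every library. Leukocyte markers summed to 1.64 to 2.0 FPKM in control and 2.42 to 3.21 FPKM in TFAM-OE. Of 10 listed, 7 had a row, 2 were tested and 1, CD14, was called higher, against 0.447% of all genes tested. CD14 had a log2 fold change of 1.10 (adjusted p = 0.00566, edgeR), while PTPRC, which marks all leukocytes, was at 0 to 1 reads. CD14 missed the 2-fold threshold without TFAM-OE replicate 3 (0.98). Fibroblast and endothelial markers summed to 0.66 to 0.79 FPKM in control and 0.4 to 0.7 FPKM in TFAM-OE, with 1 of the 9 listed genes tested and not called. The genes listed as epithelial markers summed to 4277 to 4364 FPKM in control and 4510 to 4704 FPKM in TFAM-OE. That sum is not of keratins and adhesion molecules alone, since it includes enzyme genes such as ALDH1A1, at 657 FPKM in control. The part of other cell types in the chemokine values was not tested.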

How the data were processed

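RNA was sequenced in 6 libraries of A549 cells, 3 per group, with paired 150-nt reads of poly(A) RNA from a stranded kit. The authors trimmed reads with the FASTX-Toolkit, aligned them to GRCh38 with TopHat2, and deposited a count of uniquely mapped reads per gene and an FPKM value per gene and library. For the counting program and annotation, the labels and methods name none. Libraries were grouped by their labels; replicate numbers were not treated as pairs, and p-values cover the spread between these cultures. Counts were tested in R (4.3.3) with edgeR (4.0.16), quasi-likelihood, two-sided, TMM scaling and edgeR's filter on low counts (10 reads at the median depth in 3 libraries), with Benjamini-Hochberg adjustment over 16555 genes. The study states no filter; without one more calls were made, and that fit is an alternative. The test was checked on simulated counts with the same dispersion for every gene. That setting does not cover the low TFAM-OE reads of CXCL10 and CXCL11 or the spread of CCL5 in control. Deposited FPKM values served for levels between genes. CPM and FPKM means carry the SD of 3 libraries. Alternatives were other filters, scalings and tests (DESeq2 1.42.0, limma 3.58.1), FPKM with 0.1 or 1 added, a replicate block, and leaving out each library. Named genes were the 10 members, TFAM, called genes of the lists (those at the adjusted p for the upstream lists), other ligands and receptors at 1 FPKM or more, and the 3 nearest profiles per member; further genes of the lists (the keratins, EPCAM, CDH1, PTPRC, CCL3L3, CXCL9, the near-absent receptors, MAVS, IRF3, IKBKE, TYK2, TNFRSF1A, ALDH1A1, IFNAR1, IFNAR2, JAK1, RELA, NFKB1, NFKBIA, TNF, ELAVL1, ZC3H12A) were chosen after their values were seen. A few genes that the lists or the rule for nearest profiles would name are not reported here, and the counts of the lists leave them out. The members and lists were chosen with earlier results of these data known. Gene positions came from GENCODE version 44 and promoter letters from RefSeq.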

Additional observations from a re-analysis of the deposited data

How the results depend on the processing

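CCL5 was called lower under each of the 17 alternatives that were fitted anew (log2 fold change -3.25 to -2.73). Neither the labels nor the study's methods say whether same-numbered libraries form pairs. Deviations of same-numbered libraries from their group means correlated at -0.225, 0.008 and -0.266. These values gave no sign of a shared effect but cannot settle the pairing. With a replicate block 217 genes were called lower and 38 higher, and CXCL10 (-1.98, adjusted p = 0.0552), CXCR4 (adjusted p = 0.0504), STAT2 (0.0503) and IL1B (0.0522) lost their calls in edgeR, while CXCL8 (0.0576), TBK1 (0.163), IRF1 (0.0852) and MYD88 (0.0821) no longer passed the adjusted p alone. The within-number difference of log2(CXCL10/CXCL8) was -1.51 (exact sign-flip permutation p = 0.25, the smallest possible). Leaving out 1 library at a time gave 183 to 448 genes called lower and 21 to 113 higher, 2 to 3 members called lower and 0 higher, a class difference of -2.91 to -2.63 and a CXCL10 to CXCL8 log2 ratio difference of -1.83 to -1.24. Counts moved by over 1.5 times without control replicate 1 (183 lower, 21 higher), control replicate 2 (184, 28) and TFAM-OE replicate 2 (205, 41), and without TFAM-OE replicate 3 for genes called higher (113). Signs of values that passed no test turned for CXCL3 (leave-one-out range -0.11 to 0.032, positive at 0.022 without control replicate 2 and at its top without TFAM-OE replicate 3), CXCL1 (-7.6e-05 without TFAM-OE replicate 1 to 0.077) and CCL2 (-0.48 to 0.027, the latter without TFAM-OE replicate 3). All genes with a read gave 528 lower and 129 higher, with more genes tested, and the adjusted p alone gave 796 and 576. On log2(FPKM + 0.1), 44 genes were called higher and the class difference was -2.10. On log2(FPKM + 1), 108 genes were called lower and 11 higher, 1 member was called lower and the class difference was -0.81, with CXCL10 at -0.91, CXCL11 at -0.76, CXCR4 at -0.40 and TLR3 at -0.54; adding 1 to values near or below 1 FPKM shrinks their folds by construction. Under the 4 scalings the median log2 fold change of all genes was -0.03 to -0.002. The 6 to 30 TFAM-OE reads of CXCL10 and CXCL11 limit the precision of their folds.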
